A study of Mus musculus with 6 samples.

Results

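The genes described here are 38 members of the sterol and fatty acid synthesis pathways that the SREBP transcription factors control, chosen by symbol from the 35976 gene symbols of the count table. They comprise 5 regulators, 19 genes of the sterol branch and 14 genes of the fatty acid branch. Transcripts were counted by 3′ mRNA sequencing in 6 libraries of RAW264.7, an established mouse cell line with macrophage properties that was derived from a virus-induced tumour. In 3 libraries the cells had no treatment (control), and in 3 they had been exposed to itaconate for 24 h. Macrophages make itaconate, a small dicarboxylic acid, in their mitochondria when they are activated. The labels name no allele, transgene, vehicle, culture medium, itaconate dose or chemical form. Whether replicates were cultured separately is not stated, so p-values measure the spread between these libraries, which may be technical.

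SREBPs are made as membrane proteins of the endoplasmic reticulum, where the escort protein SCAP holds them and INSIG proteins retain the complex when sterols are plentiful. When sterols run low, SCAP carries SREBP to the Golgi, and proteases release a fragment that enters the nucleus and switches on lipid synthesis genes. SREBP-2, from Srebf2, acts mainly on the sterol genes and SREBP-1, from Srebf1, mainly on the fatty acid genes. Both branches start from cytosolic acetyl-CoA, and in macrophages their products build membranes and feed the oxysterols that signal through the nuclear receptor LXR.

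The libraries held 5202626 to 6098934 counts, of which 9295 to 11031 fell on the 38 genes. Values are given as CPM, counts brought to a common library size by the TMM method, on which a floor of 3 counts lies between 0.487 and 0.565 CPM. The floor reflects counting error alone, because no molecular identifiers are named and PCR copies of a molecule may have been counted again. All 9 macrophage markers were detected, at summed levels of 7843 to 9007 CPM in control and 5800 to 6185 CPM in itaconate libraries. They did not move together. By the test described below, Csf1r, Cd14, Itgam, Ptprc and Fcgr1 were called lower, Cd68 was called higher, and Adgre1, Lyz2 and Mertk were not called. On average Csf1r went from 3693 to 1837 CPM, Cd14 from 1507 to 777 CPM and Cd68 from 1095 to 1346 CPM. The part of these markers in the results below was not tested. Markers of cells rich in lipid synthesis were at or near 0: of 5 adipocyte markers 4 had 0 counts in every library and the other, Retn, at most 3, and of 4 hepatocyte markers 2 had 0 counts and no count passed 6. Summed markers of fibroblasts, T cells, B cells and epithelium reached at most 2.10 CPM in any library. Counts of whole cultures cannot tell fewer cells from less RNA per cell.

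Fold changes and p-values come from edgeR's quasi-likelihood test over 10636 genes, two-sided, with Benjamini-Hochberg adjustment, and genes with an adjusted p under 0.05 count as called. Of the 38 members, 36 had enough counts to be tested. Acss2, Scd1, Sc5d and Pmvk rose and Fasn, Elovl6 and Ebp fell, so 4 were called higher and 3 lower (19.4%). Over all tested genes 21.9% were called, 10.7% higher and 11.2% lower, so the share among the members was close to that background. In 8 members every itaconate library lay above every control library and in 5 every one lay below, and 35.6% of all tested genes had groups separated in this way. The median log2 fold change of the 36 members was 0.08, and that of all tested genes was -0.01.

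**Figure D1:**
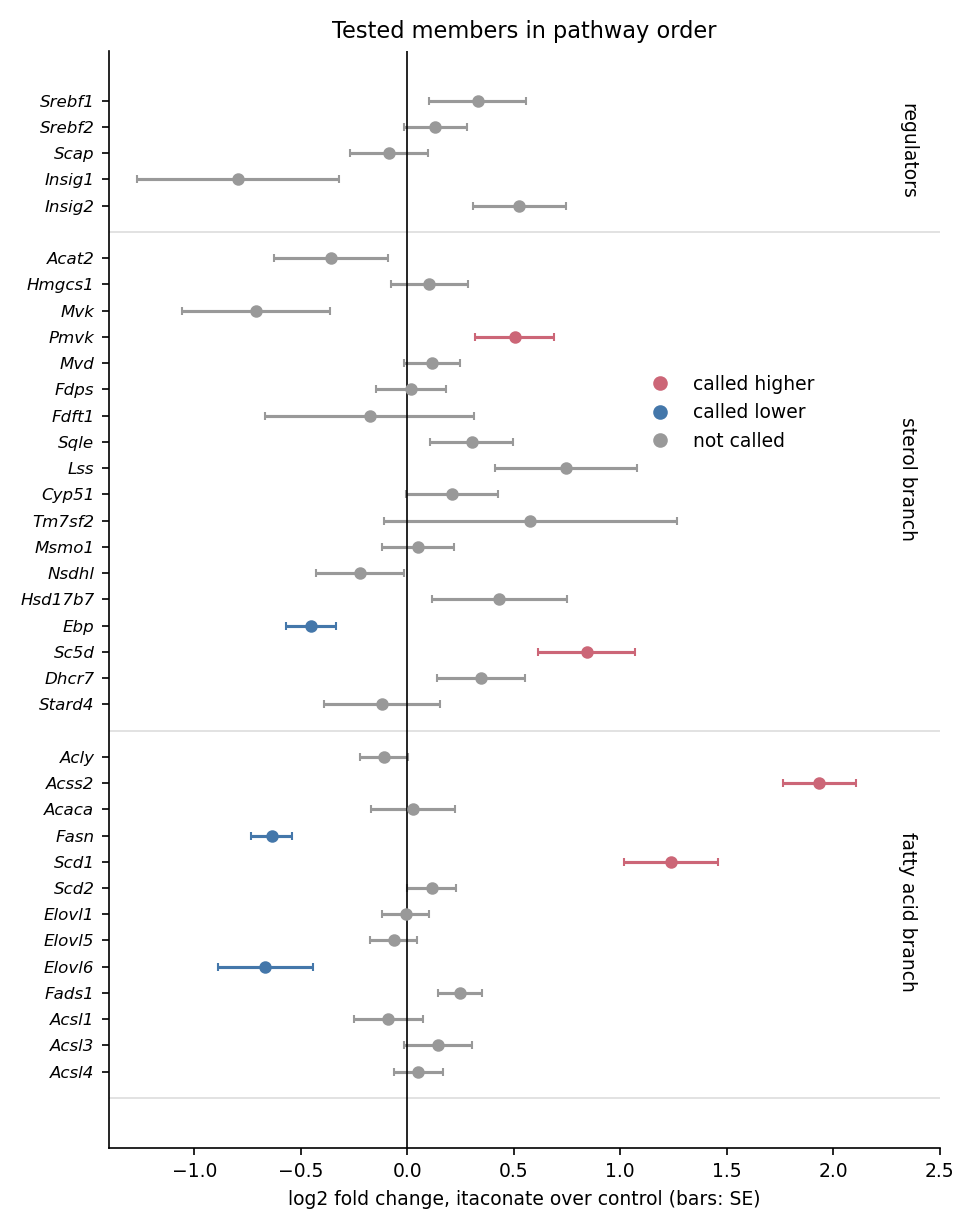
Log2 fold change of itaconate over control for the 36 tested members, in pathway order within each group, with bars for the standard error. The largest changes, Acss2 at 1.93 and Scd1 at 1.24, lie in the fatty acid branch, and the sterol genes run from -0.71 for Mvk to 0.84 for Sc5d.

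The stretches upstream of the start sites of the 6 called members with an entry are printed to show what letters the risers and fallers carry there. They are the 250 bases before the start in RefSeq (GRCm38.p6, the assembly that mm10 names), read 5′ to 3′ on the gene's strand. Capitals mark matches, on either strand, to 5 short motifs: TCACNCCAC, a form of the sterol regulatory element that SREBPs bind, CACGTG, the palindromic E-box that they also bind, CCAAT, the box of NF-Y, GGGCGG, the GC box of Sp1, and TGACNNNGC, the core of the antioxidant response element. Acss2 (chr2:155517793-155518042, plus strand) and Sc5d (chr9:42264301-42264550, minus strand) rose, and Fasn (chr11:120824548-120824797, minus strand), Elovl6 (chr3:129532136-129532385, plus strand) and Ebp (chrX:8193513-8193762, minus strand) fell. Pmvk, which rose, has 2 windows at different starts (chr3:89454291-89454540 and chr3:89459321-89459570, plus strand), printed as Pmvk a and Pmvk b. GENCODE places Pmvk from 89454541 to 89469013, so Pmvk b lies inside the gene and is upstream only of its own start.
Acss2: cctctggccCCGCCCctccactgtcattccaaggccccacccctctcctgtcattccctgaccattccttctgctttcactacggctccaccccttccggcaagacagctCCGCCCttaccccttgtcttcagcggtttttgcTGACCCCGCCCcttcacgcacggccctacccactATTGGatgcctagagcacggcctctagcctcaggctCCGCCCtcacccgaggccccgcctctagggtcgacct
Sc5d: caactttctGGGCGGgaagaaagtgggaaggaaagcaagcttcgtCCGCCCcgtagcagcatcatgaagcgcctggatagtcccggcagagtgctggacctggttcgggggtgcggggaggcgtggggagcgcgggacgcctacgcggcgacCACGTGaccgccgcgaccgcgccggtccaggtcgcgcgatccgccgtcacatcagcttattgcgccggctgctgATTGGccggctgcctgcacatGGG
Pmvk a: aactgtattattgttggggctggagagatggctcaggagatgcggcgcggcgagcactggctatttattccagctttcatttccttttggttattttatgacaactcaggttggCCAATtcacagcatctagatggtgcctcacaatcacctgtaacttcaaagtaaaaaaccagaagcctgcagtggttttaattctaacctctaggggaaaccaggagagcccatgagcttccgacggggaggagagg
Pmvk b: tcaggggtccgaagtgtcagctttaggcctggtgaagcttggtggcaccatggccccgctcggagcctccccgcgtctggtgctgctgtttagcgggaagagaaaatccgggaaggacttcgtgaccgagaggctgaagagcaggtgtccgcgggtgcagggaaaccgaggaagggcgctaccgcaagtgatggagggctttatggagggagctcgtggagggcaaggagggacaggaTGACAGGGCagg
Fasn: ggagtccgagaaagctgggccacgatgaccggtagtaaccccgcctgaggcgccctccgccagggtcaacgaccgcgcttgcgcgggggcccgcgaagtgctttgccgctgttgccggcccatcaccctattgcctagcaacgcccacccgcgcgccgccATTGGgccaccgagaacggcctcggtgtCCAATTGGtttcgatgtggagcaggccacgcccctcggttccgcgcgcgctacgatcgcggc
Elovl6: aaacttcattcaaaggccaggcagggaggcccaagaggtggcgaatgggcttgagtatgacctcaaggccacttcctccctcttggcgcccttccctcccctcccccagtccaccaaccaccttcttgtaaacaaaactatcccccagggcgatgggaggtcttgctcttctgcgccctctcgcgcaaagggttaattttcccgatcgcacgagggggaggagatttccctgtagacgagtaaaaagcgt
Ebp: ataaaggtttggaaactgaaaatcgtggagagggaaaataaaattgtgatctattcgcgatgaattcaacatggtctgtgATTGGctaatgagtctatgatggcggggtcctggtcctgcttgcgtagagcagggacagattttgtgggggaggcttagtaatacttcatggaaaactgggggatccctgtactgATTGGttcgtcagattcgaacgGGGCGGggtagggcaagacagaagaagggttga

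In the Acss2 stretch the antioxidant response element letters run from -107 to -99 relative to the start and overlap a GC box that begins at -102. The antioxidant response element letters also stand from -12 to -4 in the second Pmvk window, while the first holds a CCAAT box at -136. Fasn held 3 CCAAT matches, of which 1 at -62 and 1 at -59 overlap each other. Sc5d held the E-box at -98 and a GC box from -3 that runs past the start, and the Elovl6 stretch held none of the 5 motifs. In the whole 300-base windows, which add 50 bases after the start, the sterol regulatory element letters were found for 2 of the 31 members with an entry, Hmgcs1 and Acsl1, and in 1.44% of 23923 genes of the table with an entry. A gene counted if any of its windows held a match, and the 31 members had 41 windows. The Acsl1 match lies in a window from 46490716 on chromosome 8, inside the gene, which GENCODE starts at 46471037. The E-box was found for 6 of 31 members and 8.38% of all genes, the CCAAT box for 25 and 41.5%, the GC box for 26 and 40.2%, and the antioxidant response element for 5 and 14.3%. The last 5 were Acss2 and Pmvk, which rose, and Mvk, Hsd17b7 and Dhcr7, which were not called. The Dhcr7 match lies in a window from 143829964 on chromosome 7, inside the gene, which GENCODE starts at 143823145. By branch, the CCAAT box was in 14 of 15 sterol genes and 7 of 11 fatty acid genes. Members without an entry were Fdps, Fdft1, Sqle, Stard4, Scd1, Scd2 and Fads1. A match to these letters is a description of the sequence and shows no binding. Other forms of each motif were not searched, so a stretch without a match may still hold one.

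None of the 5 regulators was called. Srebf2 had 69.5, 70.7 and 106.0 CPM in the control libraries and 78.3, 80.9 and 109.6 CPM in the itaconate libraries, a log2 fold change of 0.13 ± 0.15 (SE, edgeR adjusted p = 0.595). The groups overlapped, and replicate 3 was the highest in both. Srebf1 had 19.9, 13.8 and 24.4 CPM in control and 26.4, 20.9 and 25.7 CPM in itaconate libraries (0.33 ± 0.23, adjusted p = 0.332), again with overlap. Scap, the escort and sterol sensor, had a log2 fold change of -0.09 ± 0.18 (adjusted p = 0.797), and its control libraries ran from 27.2 to 41.1 CPM.

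The INSIG genes, whose proteins retain SCAP in the endoplasmic reticulum, lay apart in opposite directions without passing the test. Insig1, itself a classic SREBP target, had 4.69, 6.66 and 8.40 CPM in control and 3.20, 3.74 and 4.37 CPM in itaconate libraries (-0.80 ± 0.47, edgeR adjusted p = 0.249). Insig2 had 17.7, 19.5 and 16.6 CPM in control and 25.6, 29.9 and 22.2 CPM in itaconate libraries (0.53 ± 0.22, adjusted p = 0.0794). For both genes the groups did not overlap, as for 35.6% of all tested genes, and Insig1 had only 17 to 45 counts a library. Within each library the ratio of Insig1 to Insig2 was lower with itaconate by 1.28 on the log2 scale, a 2.43-fold shift (permutation test, exact and two-sided, p = 0.1, or 0.2 adjusted over the 8 pairs compared). With 3 libraries in each group no p under 0.1 is possible. By edgeR 1 regulator (Insig2) was higher at an unadjusted p under 0.05 and 0 lower, and DESeq2 and limma-voom also called 0 regulators.

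Of 18 tested sterol members Pmvk and Sc5d rose, Ebp fell and 15 were not called. The called share of 16.7% stood near the 21.9% of all tested genes, and the median log2 fold change of the branch was 0.11. Idi1, an isomerase of the isoprenoid steps, was not tested because it had 1 to 3 counts in every library, and 42.0% of the stretches of its 3′ end also occur in other transcripts. The branch summed to 547.9, 520.3 and 487.7 CPM in the control libraries and 523.9, 543.7 and 543.8 CPM in the itaconate libraries, groups that overlap.

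In the upper, mevalonate part of the branch only Pmvk, the kinase that acts on phosphomevalonate, was called by edgeR. It had 30.8, 25.2 and 27.6 CPM in control and 33.3, 49.1 and 36.2 CPM in itaconate libraries, a rise of 0.50 ± 0.19 (edgeR adjusted p = 0.0434). The groups did not overlap, but itaconate replicate 2 stood above the others, and without it the rise was 0.32 (adjusted p = 0.347). The call was also lost when control replicate 2 (0.157) or 3 (0.0997) was left out, with DESeq2 (0.0554), with library totals (0.0770) and without a filter (0.0581), over a range of 0.0258 to 0.347 in 12 alternatives. Mvk, the kinase one step before, had 14.4, 13.2 and 11.2 CPM in control and 10.2, 2.99 and 10.5 CPM in itaconate libraries. The groups did not overlap, but Mvk was not called (-0.71 ± 0.35, adjusted p = 0.149), and itaconate replicate 2, its lowest library at 16 counts, was the same library in which Pmvk was highest. Without that library its log2 fold change was -0.32. Hmgcs1, the synthase that makes the precursor of mevalonate, stayed between 29.9 and 36.9 CPM in all 6 libraries (0.10 ± 0.18, adjusted p = 0.747). Mvd, the decarboxylase that ends this part, had 0.12 ± 0.13, and Acat2, the thiolase that begins it, -0.36 ± 0.27.

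At the middle steps, Fdps, which makes farnesyl pyrophosphate, had a log2 fold change of 0.02 ± 0.16. Its counts are uncertain, since 77.3% of the 3′-end stretches searched occur in other transcripts, pseudogenes among them. Fdft1, squalene synthase, was at 19 to 35 counts a library and had -0.18 ± 0.49. Its exons overlap those of Ctsb on the opposite strand, which went from 2791 to 3515 CPM on average. The part of Ctsb reads in the Fdft1 counts was not tested. Sqle, which oxidizes squalene, had 19.9, 28.3 and 28.0 CPM in control and 32.8, 32.0 and 29.2 CPM in itaconate libraries (0.30 ± 0.20, edgeR adjusted p = 0.298), without overlap. Lss, which closes the ring to lanosterol, was the highest of the sterol members not called, with 5.86, 6.17 and 11.2 CPM in control and 16.6, 11.8 and 10.5 CPM in itaconate libraries (0.75 ± 0.33, adjusted p = 0.107). The Lss groups overlapped through control replicate 3, and without that library it was called (1.10, adjusted p = 0.0370, with a range of 0.0370 to 0.383 over 12 alternatives).

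Among the late enzymes that trim lanosterol to cholesterol, Ebp, the sterol isomerase, fell and Sc5d, the desaturase that acts on the product of Ebp, rose. Ebp went from 109.5, 100.7 and 105.2 CPM in control to 82.3, 73.8 and 74.5 CPM in itaconate libraries. Every itaconate library was below every control library, a fall of 1.37-fold (-0.45 ± 0.12, edgeR adjusted p = 0.00322), and the call was kept in all 12 alternatives run. Sc5d (chromosome 9 from 42251595 to 42264256) went from 14.4, 14.8 and 22.0 CPM to 26.7, 24.3 and 40.4 CPM. Replicate 3 was the highest in both groups, which did not overlap, and the rise was 1.79-fold (0.84 ± 0.23, adjusted p = 0.00431). Without itaconate replicate 3 the rise was 0.59 and no longer called (adjusted p = 0.0994, the highest of 12 alternatives that began at 0.00197). Dhcr7, a reductase of the last steps, was not called (0.35 ± 0.21, adjusted p = 0.251), with itaconate replicate 2 highest at 37.6 CPM and the other 5 libraries between 19.6 and 26.8 CPM.

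The remaining late members, also not called, were the demethylase gene Cyp51 (0.21 ± 0.22), the oxidase gene Msmo1 (0.05 ± 0.17), the dehydrogenase gene Nsdhl (-0.22 ± 0.21), and the reductase genes Hsd17b7 (0.43 ± 0.32) and Tm7sf2 (0.58 ± 0.69). Tm7sf2 had 1 count in control replicate 3 and 15 to 22 in the other libraries, and its exons overlap those of Vps51 on the same strand. Stard4, a carrier of cholesterol between membranes, spread from 49 to 120 counts within the itaconate group alone (-0.12 ± 0.27, edgeR adjusted p = 0.814). Mvk was the lowest of the uncalled sterol members.

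**Figure D2:**
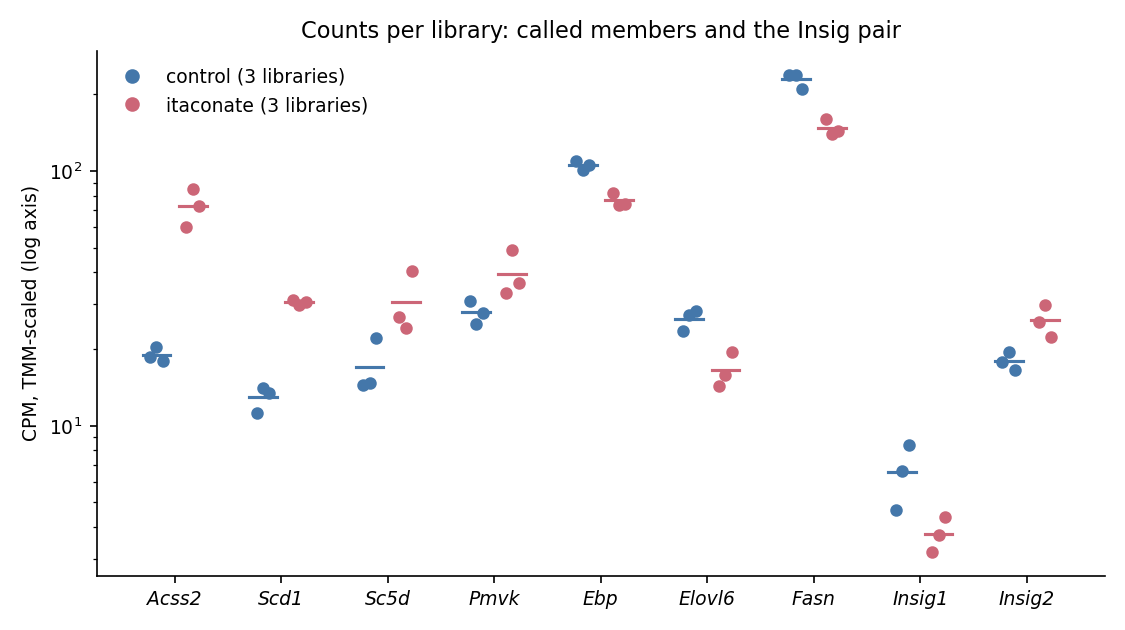
CPM in each library for the 7 called members and for Insig1 and Insig2, on a log axis, with a line at each group's mean. The groups are separate for all 9 genes, with the widest gap for Acss2, from 17.9 to 20.5 CPM in control and from 60.1 to 85.2 CPM with itaconate.

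In the fatty acid branch 2 of 13 tested members rose, 2 fell and 9 were not called (30.8% called, against 21.9% of all tested genes). The median log2 fold change was 0.03, against 0.11 in the sterol branch (0.053 without control replicate 3), and the range ran from -0.67 to 1.93, against -0.71 to 0.84. The median size of change without regard to sign was 0.11 in the fatty acid branch, 0.32 in the sterol branch and 0.28 over all tested genes. Unsigned sizes also grow with the error of each estimate. The SE ran from 0.12 (Ebp) to 0.69 (Tm7sf2) among sterol members and from 0.10 (Fasn) to 0.22 (Elovl6) among fatty acid members. The part of that error in these medians was not tested. The difference between the branches was not tested, since members are not replicates.

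Acss2, the cytosolic synthetase that makes acetyl-CoA from acetate, changed most of all members. It had 18.6, 20.5 and 17.9 CPM in control and 60.1, 85.2 and 72.9 CPM in itaconate libraries, a 3.82-fold rise (1.93 ± 0.17, edgeR adjusted p = 3.24e-13) kept in all 12 alternatives. Acly, which makes the same acetyl-CoA from citrate, had 120.0, 120.7 and 106.5 CPM in control and 95.7, 119.0 and 107.4 CPM in itaconate libraries (-0.11 ± 0.11, adjusted p = 0.556). The log2 ratio of Acss2 to Acly went from -2.60 ± 0.07 to -0.57 ± 0.09 (SD, n = 3, exact permutation p = 0.1, adjusted 0.2), a 4.09-fold shift. Of the 8 pairs compared this was the largest shift, with no overlap between the groups.

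Acss2 lies on chromosome 2 from 155518043 to 155562743 in RefSeq, end to end with Gss, the glutathione synthetase gene on the opposite strand, with 437 bases between them. A longer GENCODE transcript of Acss2 runs into Gss. Gss had 17.4, 18.7 and 16.6 CPM in control and 52.5, 60.7 and 45.6 CPM in itaconate libraries, a rise of 1.59 ± 0.18 (edgeR adjusted p = 1.21e-09). The strand setting of the counting is not given in the sources used here, so reads of these neighbours cannot be told apart where their exons overlap. The part of such reads in the rise of Acss2 was not tested.

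Neither enzyme gene between acetyl-CoA and palmitate was called higher. Acaca, the carboxylase that makes malonyl-CoA, stayed between 23.3 and 30.6 CPM in all libraries (0.03 ± 0.20, edgeR adjusted p = 0.946). Fasn, the fatty acid synthase, went from 238.9, 238.0 and 210.5 CPM in control to 159.7, 139.8 and 143.2 CPM in itaconate libraries. No itaconate library reached the lowest control library, and the fall was 1.55-fold (-0.64 ± 0.10, adjusted p = 7.87e-07), called in all 12 alternatives. Elovl6, the elongase that lengthens palmitate, went from 23.6, 27.1 and 28.2 CPM to 14.3, 15.9 and 19.4 CPM, a 1.59-fold fall without overlap (-0.67 ± 0.22, adjusted p = 0.0240). Leaving out control replicate 2 (adjusted p = 0.0734) or 3 (0.0835), or itaconate replicate 1 (0.0970) or 2 (0.0809), ended that call, and over 12 alternatives the adjusted p ran from 0.0144 to 0.0970.

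Of the desaturases that put the first double bond into saturated fatty acids, Scd1 rose and Scd2 was not called. Scd1 (chromosome 19 from 44394455 to 44407879) had 11.2, 14.1 and 13.4 CPM in control and 31.1, 29.9 and 30.6 CPM in itaconate libraries, a 2.36-fold rise (1.24 ± 0.22, edgeR adjusted p = 2.07e-05) kept in all 12 alternatives. Scd2 (44293674 to 44306864 on the same chromosome) had 112.3, 98.3 and 130.2 CPM in control and 112.0, 121.5 and 135.0 CPM in itaconate libraries (0.11 ± 0.11, adjusted p = 0.539). The log2 ratio of Scd1 to Scd2 rose by 1.12, without overlap between the groups (exact permutation p = 0.1, adjusted 0.2). None of the 3′-end stretches searched in either gene occurred in a transcript of another gene.

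Of the other elongases, Elovl5, which acts on polyunsaturated chains, had -0.06 ± 0.11 and Elovl1, which acts on very long chains, -0.01 ± 0.11, neither called by edgeR (adjusted p = 0.747 and 0.974). Elovl1 exons overlap Cdc20 on the opposite strand, a mitotic gene that fell from 18.1 to 0.502 CPM on average. The log2 ratio of Elovl6 to Elovl5 was lower with itaconate by 0.61, from -2.10 ± 0.18 to -2.71 ± 0.30 (SD, n = 3, exact permutation p = 0.1, adjusted 0.2). The front-end desaturase gene Fads1 had 130.4, 145.4 and 126.5 CPM in control and 148.9, 154.2 and 175.0 CPM in itaconate libraries. Its groups did not overlap but it missed the threshold (0.25 ± 0.10, adjusted p = 0.0773). Fads2, its partner desaturase, was not tested at 3 to 13 counts a library. The ratio of Fads1 to Fads2 differed by -0.06 on the log2 scale and rests on those few counts (exact permutation p = 0.9, adjusted 0.9).

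None of the member acyl-CoA synthetases, which activate fatty acids for use, was called: Acsl1 had -0.09 ± 0.16, Acsl3 0.14 ± 0.16 and Acsl4 0.05 ± 0.11 (edgeR adjusted p = 0.759, 0.588 and 0.801). Acsl4 stayed between 95.2 and 104.1 CPM in all 6 libraries. Acsl3 exons overlap those of Utp14b on the same strand, which went from 4.65 to 1.07 CPM on average. The ratios of Acsl1 to Acsl4 and of Acsl3 to Acsl4 shifted by -0.15 and 0.10 on the log2 scale (exact permutation p = 0.3 and 0.4, both 0.457 adjusted), with overlapping groups, as did that of Srebf1 to Srebf2 (0.22, p = 0.4, adjusted 0.457). Summed over the branch, the libraries held 1131, 1120 and 1064 CPM in control and 1075, 1143 and 1117 CPM with itaconate, which overlap. Without Fasn the sums were 891.7, 881.8 and 853.5 CPM in control and 915.8, 1003 and 974.0 CPM with itaconate, and each itaconate library lay above each control library. This sum was not planned. Leaving out a gene that fell moves the itaconate sums up relative to control, so the separation is no result about the branch.

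**Figure D3:**
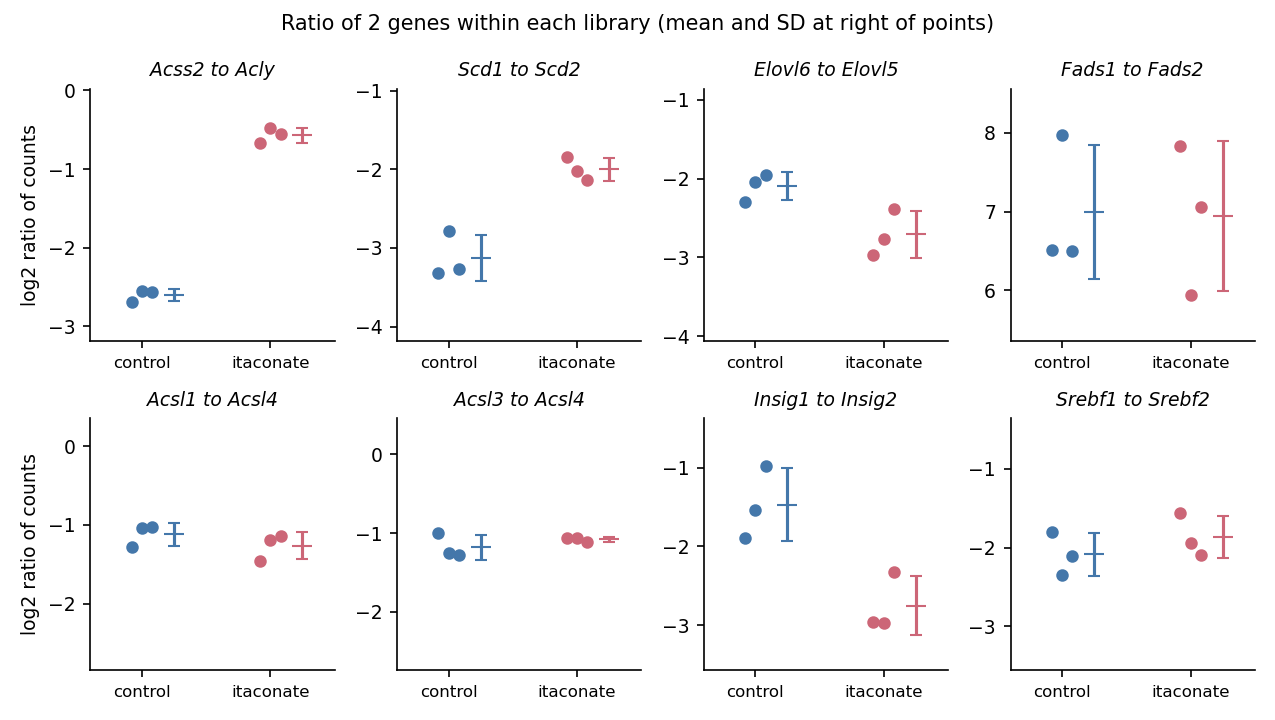
Log2 ratio of the counts of 2 genes within each library for the 8 pairs, each panel spanning 3.2 log2 units, with the mean and SD beside the points. The control and itaconate libraries are separate for Acss2 to Acly, Scd1 to Scd2, Elovl6 to Elovl5 and Insig1 to Insig2, and overlap for the other 4 pairs.

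**Figure D4:**
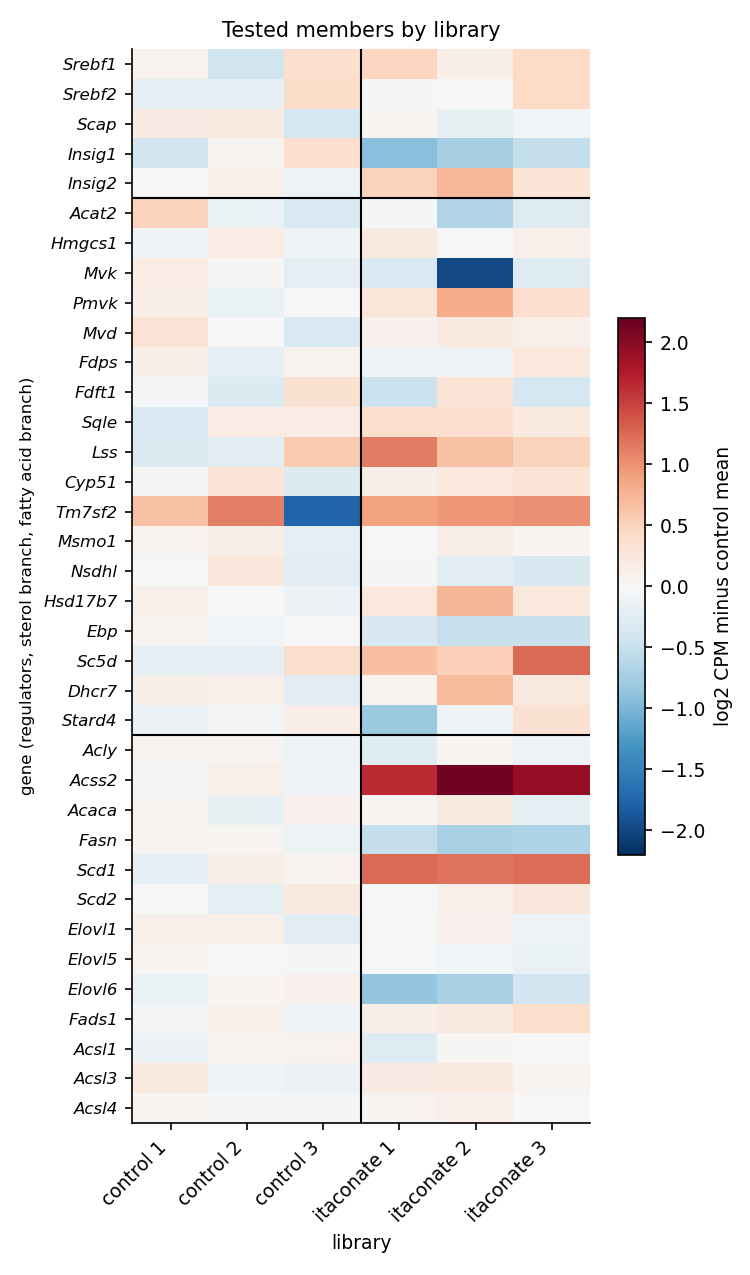
Log2 CPM of each tested member in each library minus the gene's control mean, red for higher and blue for lower. Acss2 and Scd1 are red in all 3 itaconate libraries and Fasn and Elovl6 blue, while Mvk stands out in itaconate replicate 2 and Tm7sf2 in control replicate 3.

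Genes around the members were taken from further lists, of which 3 are described first. The lists of esterification and lipid droplet genes and of LXR and its targets come under other observations. The NRF2 indicator genes form a list of their own and are named beside Me1. Of 11 tested genes that cleave SREBPs or govern their retention and turnover, 2 rose and 2 fell, and the median was 0.24. That is 36.4% called, against 21.9% of all tested genes. The genes of the SREBP proteases changed in opposite directions. Mbtps1, which makes the first cut, went from 103.6, 126.4 and 114.4 CPM to 78.9, 69.9 and 74.8 CPM (-0.62 ± 0.12, edgeR adjusted p = 5.73e-05). Mbtps2, which makes the second cut inside the membrane, went from 21.9, 20.0 and 28.0 CPM to 30.9, 41.9 and 33.9 CPM (0.61 ± 0.20, adjusted p = 0.0182). The groups did not overlap for either protease. Leaving out control replicate 1 (adjusted p = 0.0671) or 2 (0.103), or itaconate replicate 2 (0.157), ended the Mbtps2 call, over a range of 0.0115 to 0.157. Rnf145, a ubiquitin ligase of the endoplasmic reticulum that responds to sterols, fell by 0.78 on the log2 scale (SE 0.12, adjusted p = 1.76e-06), from 106.4 ± 7.24 to 61.8 ± 2.96 CPM (SD, n = 3). Pgrmc1, a heme-binding membrane protein that partners sterol enzymes, rose by 0.64 ± 0.22 (adjusted p = 0.0317), a call lost with library totals (0.0522) and without control replicate 1 (0.0963) or 3 (0.0990) or itaconate replicate 2 (0.0625) or 3 (0.198).

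Of 8 tested genes in the list of other sterol synthesis and uptake genes, 4 rose, against 10.7% called higher over all tested genes, and 0 fell by edgeR (also 0 lower at an unadjusted p under 0.05, by DESeq2 and by limma-voom), with a median of 0.34. Por, the reductase that passes electrons to Cyp51 and Sqle, had 121.0, 110.9 and 120.2 CPM in control and 308.3, 315.6 and 355.5 CPM in itaconate libraries (1.48 ± 0.09, adjusted p = 4.67e-18). Cyb5r3, which feeds electrons to the desaturases, among them those of Scd1 and Sc5d, rose by 0.53 ± 0.11, from 106.3 ± 13.0 to 153.7 ± 19.2 CPM (SD, n = 3). Ggps1, which turns farnesyl into geranylgeranyl pyrophosphate, had 29.3, 29.4 and 31.7 CPM in control and 58.0, 56.1 and 55.4 CPM in itaconate libraries (0.91 ± 0.16, adjusted p = 1.76e-05). For these 3 genes every itaconate library was above every control library, and the calls were kept in all 12 alternatives.

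Of 14 tested genes in the list of other fatty acid synthesis genes, 4 rose and 2 fell, with a median of 0.34. The called share was 42.9%, against 21.9% of all tested genes (10.7% higher and 11.2% lower). Me1, the cytosolic malic enzyme that supplies NADPH to fatty acid synthesis, had 3.85, 5.04 and 3.36 CPM in control and 37.7, 23.5 and 27.8 CPM in itaconate libraries (2.85 ± 0.29, edgeR adjusted p = 2.22e-11). It is also known as an NRF2 target, and the 4 NRF2 indicator genes Gclm, Slc7a11, Srxn1 and Txnrd1 rose by 4.04, 3.58, 3.40 and 2.10 in the same libraries. Whether NRF2 had a part in the rise of Me1 was not tested. Slc25a1, the carrier that exports the citrate used by Acly, had 43.7, 27.6 and 34.9 CPM in control and 52.9, 53.1 and 60.5 CPM in itaconate libraries (0.65 ± 0.17, adjusted p = 0.00270). Tecr, the reductase that ends each elongation cycle, rose by 0.34 ± 0.09 (adjusted p = 0.00442). Acsl5, an acyl-CoA synthetase not among the members, fell by 0.52 on the log2 scale (SE 0.14, adjusted p = 0.00602). Its groups overlapped, since itaconate replicate 3 was at 96.2 CPM and control replicate 3 at 94.8 CPM, and without itaconate replicate 2 the call was lost (adjusted p = 0.0884, the highest over 12 alternatives that began at 2.73e-05).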

How the data were processed

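The authors deposited 1 table of unnormalized read counts with a row for each gene symbol. The build mm10 and the tools HTSeq 0.6.1, STAR 2.7.5a and edgeR come from the submitters' processing notes, and per the labels' protocols libraries were made with the Lexogen QuantSeq FWD kit, which reads 3′ ends. Not given in the sources used here are the annotation version, the strand setting and how multi-mapped reads were treated. All 6 count columns were used, in the order of the header names, and 0 belonged to another series.

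Groups follow the treatment label. Genes passing edgeR's filterByExpr (minimum count 10, minimum total 15), 10636 with 99.74% of counts, were scaled by TMM and tested with edgeR 4.0.16 (R 4.3.3, robust quasi-likelihood F test, group as the only term). The SE is the absolute log2 fold change over the square root of F. Pair ratios used a prior count of 0.5 and an exact permutation test over libraries. Alternatives were DESeq2 1.42.0, limma-voom (limma 3.58.1), library totals, no filter, a filter of 5 CPM in 3 libraries, the replicate number as a block and leaving out each library. The fits were tested on simulated counts. For library deviations, log2 CPM values took a prior count of 2.

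Gene positions and exon overlaps are from GENCODE M21 (GRCm38) unless RefSeq is named. Shared 3′ ends are 50-base stretches of the last 400 bases of coding transcripts that occur in another gene's transcripts. The members and lists were chosen with earlier results of these data known. Named were all called members, the regulators, both genes of each pair, the extremes of the uncalled members, and up to 4 called genes of each list with the smallest p, of which 1 is not reported here. Members described beyond that rule, and Gss, Cdc20, Ctsb and Utp14b, were chosen after their values were seen.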

Additional observations from a re-analysis of the deposited data

How the results depend on the processing

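All counts of called genes over the whole table stayed within 1.5 times. Of the 7 called members, Acss2, Scd1, Fasn and Ebp were called in all 12 alternatives, while Pmvk was lost in 7, Elovl6 in 4 and Sc5d in 1. The sterol branch had 1 rather than 2 members higher with DESeq2, with library totals, with no filter and with the replicate block, and 1 to 2 when a library was left out. The fatty acid branch had 1 to 2 lower when a library was left out. Leaving out each library in turn gave the regulators' median a range of -0.038 to 0.35 and that of the fatty acid branch -0.052 to 0.060, and library totals gave the latter -0.024. The sterol median of 0.11 ran from 0.053 without control replicate 3 to 0.16 without control replicate 2, and was 0.059 with library totals.

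No uncalled member was called in an alternative other than Lss without control replicate 3. Some uncalled values near 0 changed sign. With library totals Fdps was at -0.037, Msmo1 at -0.000875 and Acaca at -0.024, and with the replicate block Elovl1 was at 8.09e-05. Over the left-out libraries Srebf2 ran from -0.038 to 0.35, Scap from -0.25 to 0.014, Mvd from -0.033 to 0.29, Fdps from -0.096 to 0.083, Fdft1 from -0.48 to 0.015, Msmo1 from -0.047 to 0.13, Stard4 from -0.43 to 0.14, Acaca from -0.066 to 0.13, Elovl1 from -0.11 to 0.052 and Acsl1 from -0.15 to 0.0034. The log2 ratio difference of Fads1 to Fads2 ran from -0.50 to 0.45. The cause of these changes was not tested.

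Same-numbered libraries deviated from their group means with correlations of -0.01, 0.02 and 0.04, and differently numbered ones with -0.04 to 0.03. The highest was that of the replicate 3 libraries, and control replicate 2 correlated best with itaconate replicate 1 (0.03). All these values lay near 0, so the numbers were not taken to pair the libraries. With the replicate block, 2247 genes were called in place of 2324, and among the members Pmvk was lost (adjusted p = 0.0659). For the pairs the block's smallest possible p is 0.25. Depth limits members with few counts: the SE was 0.47 for Insig1, 0.49 for Fdft1 and 0.69 for Tm7sf2.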

Other observations

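In the list of esterification and lipid droplet genes, 6 of 10 tested rose and 0 fell by edgeR (0 lower at an unadjusted p under 0.05, by DESeq2 and by limma-voom), with a median of 0.63. Over all tested genes the median was -0.01, and 21.9% were called, 10.7% higher and 11.2% lower. Plin2, the main droplet coat protein of macrophages, had 991.3, 969.4 and 904.4 CPM in control and 1814, 1700.0 and 1792 CPM in itaconate libraries (0.89 ± 0.07, edgeR adjusted p = 2.61e-14). Pnpla2, the lipase that begins triglyceride breakdown, had 152.7, 136.4 and 152.4 CPM in control and 290.8, 298.2 and 285.2 CPM in itaconate libraries (0.99 ± 0.09, adjusted p = 2.16e-12). Hilpda, an inhibitor of that lipase, rose by 1.11 ± 0.13 and the coat protein gene Plin3 by 0.71 ± 0.12. None of these 4 had overlapping groups.

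In the list of LXR and its targets 3 of 10 tested rose and 2 fell, against 10.7% called higher and 11.2% lower over all tested genes, with a median of -0.25. Abca1, the cholesterol exporter, had 28.8, 26.6 and 20.2 CPM in control and 12.6, 5.79 and 8.92 CPM in itaconate libraries (-1.47 ± 0.27, edgeR adjusted p = 2.96e-05). Rxra, the partner receptor of LXR, rose by 0.74 ± 0.19, the phosphodiesterase gene Smpdl3a by 0.52 ± 0.11 and the phospholipid acyltransferase gene Lpcat3 by 0.62 ± 0.17. The Lpcat3 call was lost without itaconate replicate 3 (adjusted p = 0.0657, the highest of 12 alternatives that began at 0.000826).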
